A study of Mus musculus with 12 samples.

Results

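9 genes that mark excitatory neurons of the cerebral cortex were followed in mouse brain hemispheres after stroke. They were taken by symbol from a list, and the count table held all 9 among its 25124 genes. Cux2, Rorb and Rasgrf2 mark neurons of the upper cortical layers. Fezf2, Bcl11b, Tbr1 and Foxp2 mark neurons of the deep layers, and Neurod2 and Neurod6 mark excitatory neurons of all layers. Tissue was taken at day 28 of a stroke model, occlusion of the middle cerebral artery (MCAo), that injures cortex and striatum of the ipsilateral hemisphere. DKK1 mice carried tetO-Dkk1 at Hprt, rtTA with EGFP at ROSA26 and a TCF/Lef1-lacZ reporter, so that doxycycline induced Dkk1, a secreted inhibitor of Wnt signalling, from day 3. Wild-type C57BL6/J mice had the occlusion too, and both genotypes were given doxycycline at 200 mg/kg. The 4 groups, of 3 libraries each, were DKK1 ipsilateral, DKK1 contralateral, wild-type ipsilateral and wild-type contralateral hemisphere. No group carried the transgenes without doxycycline and none was unoperated. The contralateral hemisphere is therefore tissue of an operated animal, and induction of Dkk1 and carriage of the other transgenes cannot be told apart. The labels give neither age nor sex, and the cells in which the activator at ROSA26 is active are not stated beyond the locus. Whether libraries came from separate animals is not stated either, so the p-values measure only the spread between libraries, part of which may be technical.

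The cerebral cortex is built of layers of excitatory neurons that differ in their targets. Upper-layer neurons mostly connect areas of the cortex, within a hemisphere and across the corpus callosum, and the granular layer among them receives input from the thalamus. Deep-layer neurons send axons to the brainstem and spinal cord, to the striatum and to the thalamus. Transcription factors that set these identities during development stay expressed in the adult, which makes their transcripts markers of layer. Canonical Wnt signalling acts in the patterning and in the synapses of this tissue, and DKK1 blocks it at the LRP co-receptors.

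Libraries held 21209920 to 26911840 counts in genes. Dkk1, the induced gene, had 7 to 44 counts in the DKK1 ipsilateral libraries, 4 to 13 in the DKK1 contralateral libraries and 0 in all 6 wild-type libraries. A wild-type library of each side stood apart from its group. On the first principal component, wild-type ipsilateral 1 lay at −70.9, inside the range of the DKK1 ipsilateral libraries (−83.8 to −62.8), while wild-type ipsilateral 2 and 3 lay at −29.2 and −37.1. On the intact side, the value was 41.2 for wild-type contralateral 1 and 72.6 and 63.3 for the other libraries of its group. Its summed level of 10 microglia and macrophage genes was 446 CPM against 298 and 305 CPM. Members' calls that changed without wild-type ipsilateral 1, or without both of these libraries, are given with and without them. All 9 genes passed the filter on low counts, which left 17612 genes to be tested. The lowest of their counts was 557 reads, so none of the values below is near the limit of detection.

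Per kilobase of transcript, Tbr1, a T-box factor of corticothalamic neurons, had the highest level on the intact side. These levels are CPM, counts scaled to library size and by TMM factors, divided by transcript length in kb, as mean ± SD over 3 libraries. Tbr1 stood at 36.3 ± 1.65 CPM per kb in DKK1 contralateral and 40.5 ± 1.78 in wild-type contralateral hemispheres. Bcl11b, Neurod2, Rasgrf2, Cux2 and Neurod6 came next, between 29.6 (Neurod6) and 33.7 (Bcl11b) in DKK1 contralateral hemispheres, and the libraries of neighbours in that order overlapped. Fezf2 (12.4 ± 0.518 in DKK1 contralateral and 13.0 ± 1.502 in wild-type contralateral hemispheres), Rorb (9.76 ± 0.582 and 10.5 ± 0.236) and Foxp2 (7.15 ± 0.281 and 8.10 ± 0.694) were the lowest, without overlap between them. On the lesioned side the order at the top was another one. In DKK1 ipsilateral hemispheres Neurod6 (29.4 ± 3.33) and Neurod2 (25.1 ± 3.44) had the highest means, above Tbr1 at 23.2 ± 2.18. In wild-type ipsilateral hemispheres Neurod2 (27.4 ± 1.14), Tbr1 (27.02 ± 5.10) and Neurod6 (26.5 ± 5.67) lay together, with overlapping libraries. Libraries of neighbouring genes overlapped there too, apart from the step down to Fezf2 and from Fezf2 to Rorb. Fezf2, Rorb and Foxp2 stayed the lowest 3 on the lesioned side of both genotypes.

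The stretches just before the transcription starts of 4 members are shown because these genes span the range of responses described below: Cux2 and Tbr1 are an upper-layer and a deep-layer gene that were lower on the lesioned side, and Fezf2 and Neurod6 were not called in either genotype. They are 250 bases each, from RefSeq promoters on GRCm38.p6 (mm10), 5′ to 3′ on the gene's strand, at chr5:122049852-122050101 (minus strand), chr2:61804203-61804452 (plus), chr14:12345866-12346115 (minus) and chr6:55681264-55681513 (minus). Capitals mark each E-box, CANNTG, the palindromic core bound by basic helix-loop-helix proteins such as Neurod2 and Neurod6.
Cux2: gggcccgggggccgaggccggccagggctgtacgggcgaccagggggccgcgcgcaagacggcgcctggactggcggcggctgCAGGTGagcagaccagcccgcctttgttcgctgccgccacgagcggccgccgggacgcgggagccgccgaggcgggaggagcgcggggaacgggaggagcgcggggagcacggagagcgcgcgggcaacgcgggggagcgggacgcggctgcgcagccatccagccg
Tbr1: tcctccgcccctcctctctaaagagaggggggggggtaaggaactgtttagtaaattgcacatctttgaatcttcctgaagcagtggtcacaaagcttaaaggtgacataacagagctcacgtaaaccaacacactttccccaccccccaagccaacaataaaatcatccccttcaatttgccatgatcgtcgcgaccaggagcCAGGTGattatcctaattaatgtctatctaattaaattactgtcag
Fezf2: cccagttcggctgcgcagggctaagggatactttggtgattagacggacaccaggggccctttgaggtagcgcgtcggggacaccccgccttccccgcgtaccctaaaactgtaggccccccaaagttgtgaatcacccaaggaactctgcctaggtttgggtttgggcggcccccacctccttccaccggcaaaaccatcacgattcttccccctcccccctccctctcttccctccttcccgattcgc
Neurod6: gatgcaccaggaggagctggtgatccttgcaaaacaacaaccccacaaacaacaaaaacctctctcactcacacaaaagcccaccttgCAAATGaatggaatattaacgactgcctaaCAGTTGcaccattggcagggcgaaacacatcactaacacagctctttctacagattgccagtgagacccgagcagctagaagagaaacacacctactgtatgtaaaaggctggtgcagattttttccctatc

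Cux2 and Tbr1 each hold a single E-box with the letters CAGGTG, which was present, on either strand, in 17.1% of the 27025 RefSeq mouse promoters of that length. The Fezf2 window holds none, and Neurod6 holds CAAATG and CAGTTG. RefSeq promoters were matched for 8 of the 9 members. Of these, 5 hold an E-box (Cux2, Rasgrf2, Tbr1, Neurod2 and Neurod6), against 66.0% of all promoters. CAGATG, the form preferred by NeuroD proteins (CATCTG on the other strand), occurs in 1, Neurod2 itself, and in 14.5% of all promoters. Any CANNTG counts as an E-box on both strands, so the CAGGTG and CAGATG matches are part of that count. These matches describe letters only.

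All 3 upper-layer genes fell on the lesioned side in both genotypes. Values are CPM scaled by TMM for libraries 1, 2 and 3 of each group. Changes are on the log2 scale, ipsilateral over contralateral, each with its standard error from the quasi-likelihood fit of edgeR. In a sample of whole tissue, fewer cells of a type and less RNA per cell cannot be told apart. Cux2 (chr5:121860216-122049851, minus strand), a homeodomain factor that shapes dendrites and spines of upper-layer neurons, had 98.0, 102 and 89.2 CPM in DKK1 ipsilateral against 166, 146 and 132 CPM in DKK1 contralateral hemispheres. In wild-type mice it had 83.9, 107 and 99.1 CPM in ipsilateral against 164, 142 and 139 CPM in contralateral hemispheres. Every ipsilateral library lay below every contralateral one, and the ipsilateral values of the 2 genotypes overlapped. The change was −0.61 ± 0.11 in DKK1 (adjusted p = 0.000584) and −0.62 ± 0.11 in wild-type mice (adjusted p = 0.00114).

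Rorb (chr19:18930609-19111196, minus strand) is an orphan nuclear receptor of the thalamus-recipient granular layer. With all libraries it showed the largest fitted change of the 9 genes in both genotypes, within the standard errors of that of Bcl11b. Its values were 47.6, 52.0 and 56.2 CPM in DKK1 ipsilateral against 94.4, 84.4 and 92.9 CPM in DKK1 contralateral hemispheres, and 39.0, 71.1 and 66.1 CPM in wild-type ipsilateral against 95.6, 99.5 and 96.0 CPM in wild-type contralateral hemispheres. Lesioned and intact sides did not overlap, and wild-type ipsilateral 1 had the lowest value of all 12 libraries. Rorb fell by 0.80 ± 0.17 in DKK1 (adjusted p = 0.00221) and by 0.73 ± 0.17 in wild-type mice (adjusted p = 0.00654). Without wild-type ipsilateral 1 the wild-type change was −0.50 ± 0.074 (adjusted p = 0.000620). In that fit Bcl11b (−0.61 ± 0.15) and Cux2 (−0.52 ± 0.10) had larger wild-type changes than Rorb, within the standard errors. Rasgrf2 (chr13:91880407-92131828, minus strand), an exchange factor that activates Ras and Rac and labels superficial pyramidal neurons, had 141, 164 and 157 CPM in DKK1 ipsilateral against 241, 229.6 and 243 CPM in DKK1 contralateral hemispheres. The wild-type values were 135, 186 and 187 CPM in ipsilateral against 242, 219.7 and 231 CPM in contralateral hemispheres. Again the sides were apart in both genotypes, and wild-type ipsilateral 1 was the lowest library. The changes were −0.63 ± 0.11 (adjusted p = 0.000589) in DKK1 and −0.45 ± 0.11 (adjusted p = 0.00778) in wild-type mice, or −0.31 ± 0.067 (adjusted p = 0.00712) in wild-type mice without wild-type ipsilateral 1.

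**Figure D1:**
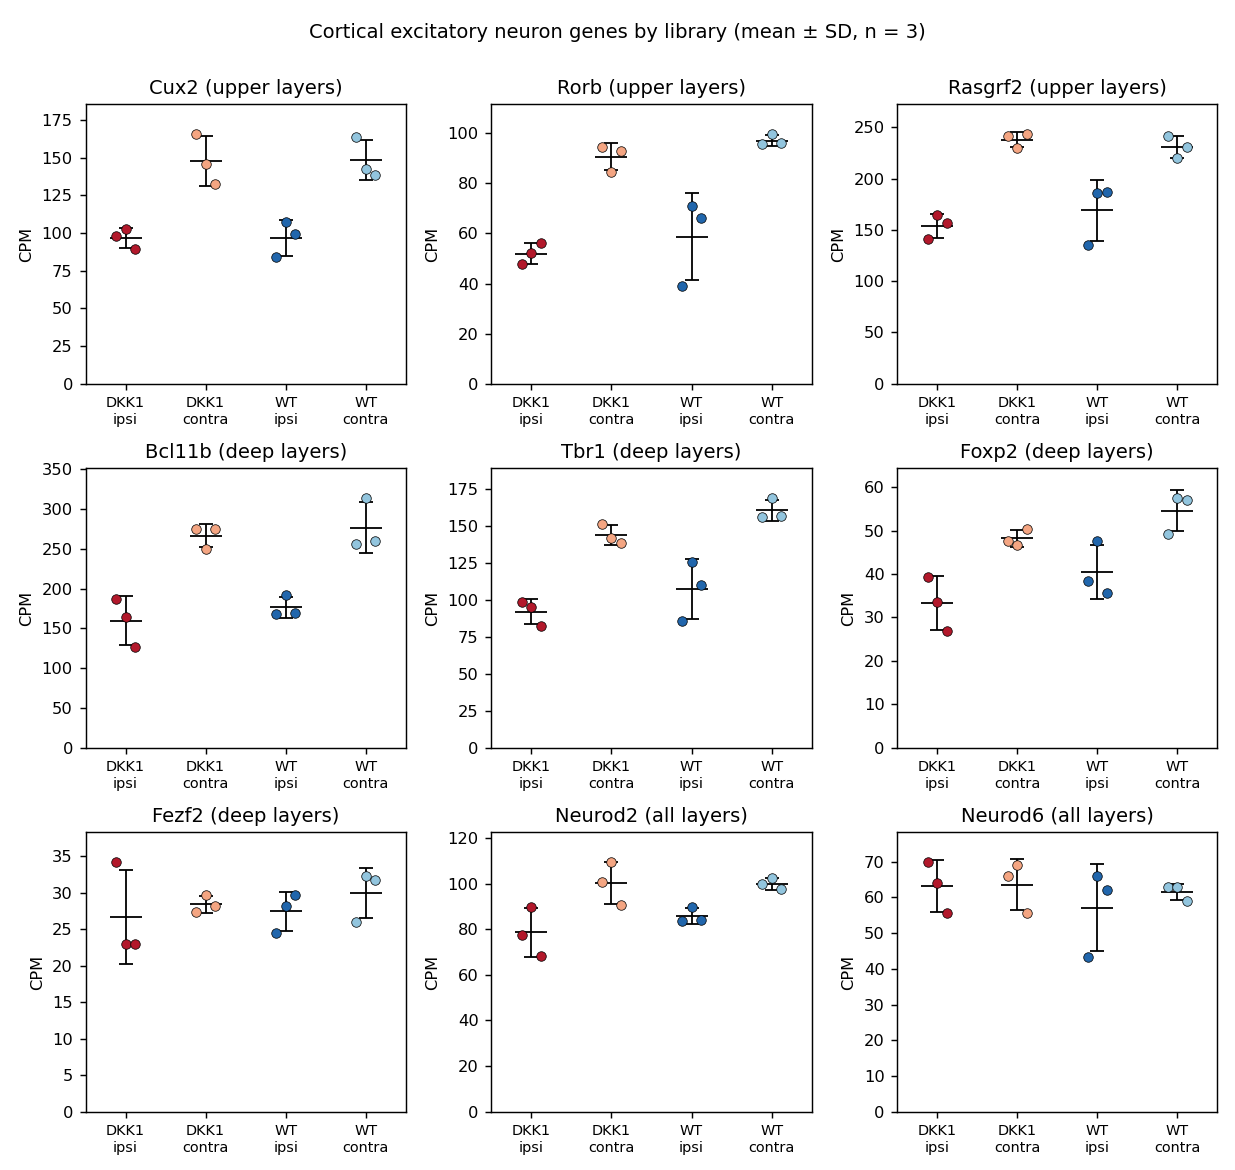
Each panel shows 1 gene, with TMM-scaled CPM on the vertical axis (from 0) and the 4 groups on the horizontal axis. Points are the 3 libraries of a group, and lines with whiskers are their mean ± SD. Cux2, Rorb, Rasgrf2, Bcl11b and Tbr1 have all ipsilateral points below all contralateral points of the same genotype, while Fezf2 and Neurod6 overlap.

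Of the deep-layer genes, Bcl11b, Tbr1 and Foxp2 fell in both genotypes and Fezf2 was not called in either. Bcl11b (chr12:107910403-108003414, minus strand), a zinc-finger factor (also called Ctip2) of neurons that project below the cortex, had 187, 165 and 127 CPM in DKK1 ipsilateral against 275, 249.6 and 275 CPM in DKK1 contralateral hemispheres. In wild-type mice the values were 168, 192 and 169.7 CPM in ipsilateral against 256.6, 314 and 260.4 CPM in contralateral hemispheres. No ipsilateral library reached the contralateral range of its genotype. The changes were −0.74 ± 0.13 (adjusted p = 0.000589) in DKK1 and −0.65 ± 0.13 (adjusted p = 0.00253) in wild-type mice. Bcl11b is also expressed in striatal medium spiny neurons, in the hippocampus and in T cells. Summed over 13 markers of medium spiny neurons, the level was 1409.8 to 2069.9 CPM in DKK1 ipsilateral against 2832 to 3711 CPM in DKK1 contralateral hemispheres, and 1561 to 2177 CPM in wild-type ipsilateral against 2910.2 to 4058 CPM in wild-type contralateral hemispheres. All 13 were lower in both genotypes, and their part in the change of Bcl11b was not tested.

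Tbr1 (chr2:61804453-61814113, plus strand) had 98.7, 95.4 and 82.3 CPM in DKK1 ipsilateral against 151, 142 and 139 CPM in DKK1 contralateral hemispheres. Its wild-type values were 85.7, 126 and 110.2 CPM in ipsilateral against 156, 169 and 157 CPM in contralateral hemispheres. The sides were apart in each genotype. The changes were −0.64 ± 0.12 (adjusted p = 0.000815) in DKK1 and −0.58 ± 0.12 (adjusted p = 0.00273) in wild-type mice. Foxp2 (chr6:14901349-15441977, plus strand), a forkhead factor of corticothalamic neurons that medium spiny and thalamic neurons also express, had 39.3, 33.6 and 26.8 CPM in DKK1 ipsilateral against 47.7, 46.6 and 50.3 CPM in DKK1 contralateral hemispheres. In wild-type mice it had 38.4, 47.5 and 35.7 CPM in ipsilateral against 49.2, 57.4 and 57.1 CPM in contralateral hemispheres. The sides did not overlap, but wild-type ipsilateral 2 came close to the lowest contralateral library. Foxp2 changed by −0.53 ± 0.13 (adjusted p = 0.00628) in DKK1 and by −0.43 ± 0.13 (adjusted p = 0.0262) in wild-type mice. The wild-type call was lost on leaving out wild-type ipsilateral 1 (adjusted p = 0.0869) or 3 (0.0929), or wild-type contralateral 2 (0.0837) or 3 (0.0770), with the change between −0.35 and −0.39.

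Fezf2 (chr14:12341892-12345865, minus strand), the zinc-finger factor that specifies corticospinal and other subcerebral neurons, had 34.1, 23.0 and 22.9 CPM in DKK1 ipsilateral against 27.3, 29.7 and 28.2 CPM in DKK1 contralateral hemispheres. In wild-type mice it had 24.5, 28.1 and 29.7 CPM in ipsilateral against 26.0, 32.2 and 31.7 CPM in contralateral hemispheres. The sides overlapped in both genotypes, and the highest of all 12 libraries was DKK1 ipsilateral 1. The changes were −0.090 ± 0.15 in DKK1 (95% interval −0.41 to 0.23, adjusted p = 0.639) and −0.13 ± 0.15 in wild-type mice (95% interval −0.45 to 0.19, adjusted p = 0.533). Without DKK1 ipsilateral 1, Fezf2 was called lower in DKK1 mice at −0.31 (adjusted p = 0.0347). In same-numbered libraries the ratio of ipsilateral to contralateral CPM was 1.25, 0.774 and 0.814 in DKK1 and 0.943, 0.873 and 0.937 in wild-type mice, so the DKK1 pairs did not share a direction.

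Of the all-layer genes, Neurod2 fell in DKK1 mice and Neurod6 was not called in either genotype. Neurod2 (chr11:98325417-98329645, minus strand) and Neurod6 (chr6:55677819-55681263, minus strand) encode basic helix-loop-helix factors that drive differentiation of excitatory neurons and stay on in cortex and hippocampus. Neurod2 had 77.5, 89.9 and 68.4 CPM in DKK1 ipsilateral against 101, 109 and 90.6 CPM in DKK1 contralateral hemispheres, and 83.6, 89.9 and 83.8 CPM in wild-type ipsilateral against 99.6, 102 and 97.4 CPM in wild-type contralateral hemispheres. The sides did not overlap in either genotype, by a narrow margin in DKK1 mice. Neurod2 fell in DKK1 mice (−0.35 ± 0.091, adjusted p = 0.00720). In wild-type mice it had a change of −0.22 ± 0.091 (95% interval −0.42 to −0.019, adjusted p = 0.0791), and with the replicate number as a block it was called there (−0.22, adjusted p = 0.00229), as it was without DKK1 ipsilateral 2 (adjusted p = 0.0375) or 3 (adjusted p = 0.0423), which enter through the shared estimate of spread. Neurod6 had 69.8, 64.2 and 55.6 CPM in DKK1 ipsilateral against 65.9, 69.2 and 55.6 CPM in DKK1 contralateral hemispheres, and 43.2, 66.0 and 62.0 CPM in wild-type ipsilateral against 62.8, 62.9 and 59.1 CPM in wild-type contralateral hemispheres. These values overlapped, with wild-type ipsilateral 1 alone well below the rest. The changes were −0.0088 ± 0.14 in DKK1 (95% interval −0.32 to 0.30, adjusted p = 0.966) and −0.11 ± 0.14 in wild-type mice (95% interval −0.42 to 0.20, adjusted p = 0.575). Both genes mark hippocampal neurons as well, and the summed level of 9 other hippocampal genes was 273 to 314 CPM in DKK1 ipsilateral against 266 to 345 CPM in DKK1 contralateral hemispheres. In wild-type mice that sum was 288 to 353 CPM in ipsilateral against 242 to 301 CPM in contralateral hemispheres. Most of the DKK1 sum was Wfs1, at 186 ± 8.81 CPM in ipsilateral and 239 ± 29.1 CPM in contralateral hemispheres. The mean log2 CPM of the 9 genes weighs them equally. It was 2.972 to 3.313 in DKK1 ipsilateral and 1.977 to 3.300 in DKK1 contralateral libraries, which overlap. In wild-type mice it was 2.799 to 3.708 in ipsilateral and 1.701 to 2.355 in contralateral libraries, without overlap. The part of these genes in the Neurod values was not tested.

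Counted together, 7 of the 9 members were called lower in DKK1 mice, where 22.6% of all 17612 genes were called lower and 27.5% higher on the lesioned side. In wild-type mice 6 of the 9 were called lower, against 15.9% of all genes lower and 21.2% higher. By position these were 3 of 3 upper-layer and 3 of 4 deep-layer genes in both genotypes, and 1 of 2 all-layer genes in DKK1 and 0 of 2 in wild-type mice. No member was called higher. The median log2 change of the 9 was −0.61 in DKK1 and −0.45 in wild-type mice, beside medians over all genes of 0.012 and 0.0064. For 7 members every ipsilateral library lay below every contralateral one in each genotype, as did 27.8% of all genes in DKK1 and 23.8% in wild-type mice. DESeq2 and limma-voom called the same numbers, 7 and 6. Across same-numbered libraries, the ipsilateral to contralateral ratio spanned 0.505 to 0.715 for upper-layer, 0.462 to 1.25 for deep-layer and 0.755 to 1.06 for all-layer genes in DKK1 mice. In wild-type mice the spans were 0.408 to 0.846, 0.548 to 0.943 and 0.687 to 1.05 in that order of classes.

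**Figure D2:**
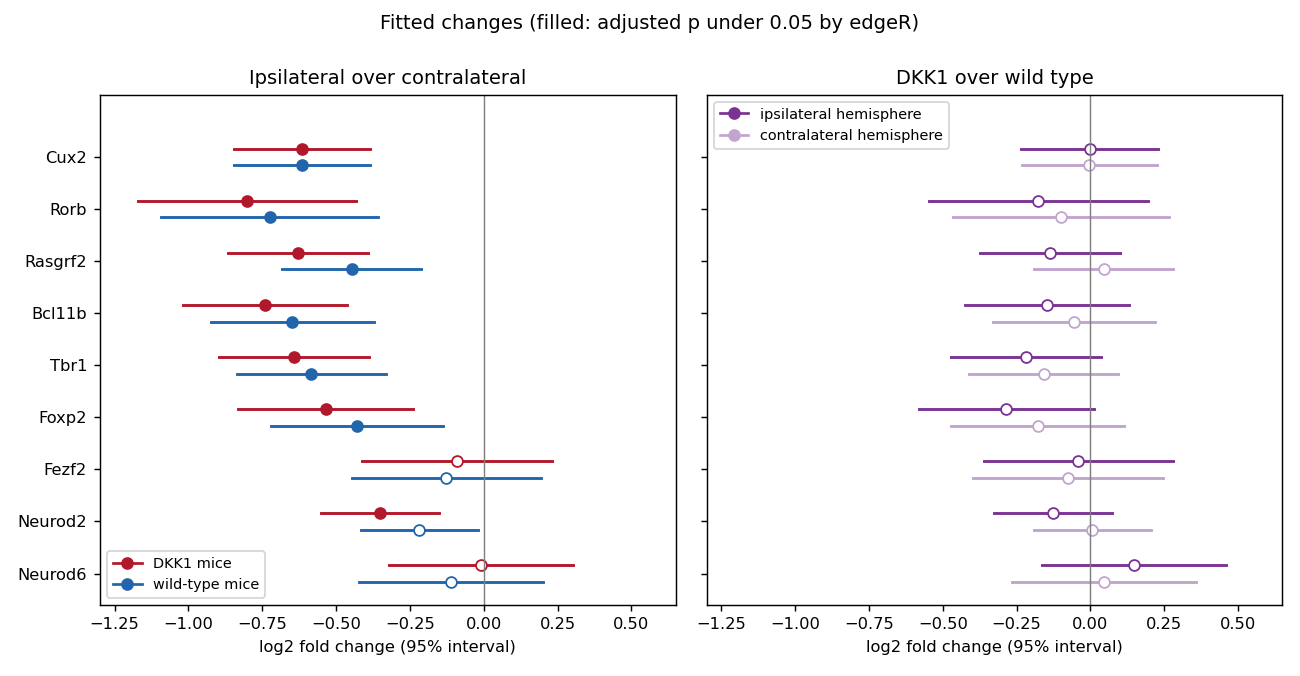
Log2 fold changes of the 9 genes (horizontal axis, ipsilateral over contralateral and DKK1 over wild type) with 95% intervals from edgeR; filled points passed an adjusted p of 0.05. The lesion changes of the upper-layer genes and of Bcl11b, Tbr1 and Foxp2 lie below 0 in both genotypes, and no genotype change passed.

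The balance of upper-layer to deep-layer genes overlapped between the hemispheres of each genotype. The mean log2 CPM of the 3 upper-layer genes minus that of the 4 deep-layer genes was 0.30, 0.69 and 0.87 in DKK1 ipsilateral and 0.86, 0.75 and 0.75 in DKK1 contralateral libraries. It was 0.33, 0.57 and 0.68 in wild-type ipsilateral and 0.88, 0.55 and 0.65 in wild-type contralateral libraries. DKK1 ipsilateral 1 and wild-type ipsilateral 1 had the lowest balance, and the other ipsilateral libraries lay among or beside the contralateral ones. Against the 2 all-layer genes, both classes stood lower on the lesioned side. The upper-layer mean minus the all-layer mean was 0.24, 0.33 and 0.58 in DKK1 ipsilateral and 0.93, 0.70 and 1.02 in DKK1 contralateral libraries, and 0.34, 0.54 and 0.57 in wild-type ipsilateral and 0.98, 0.86 and 0.94 in wild-type contralateral libraries. The deep-layer mean minus the all-layer mean was −0.059, −0.36 and −0.29 in DKK1 ipsilateral and 0.076, −0.054 and 0.27 in DKK1 contralateral libraries, where the margin between the sides was narrow. In wild-type libraries it was 0.015, −0.031 and −0.11 ipsilaterally and 0.10, 0.31 and 0.29 contralaterally. These class means are descriptions of differences in log2 CPM and were not tested, and the deep-layer mean includes Fezf2, which was not called.

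**Figure D3:**
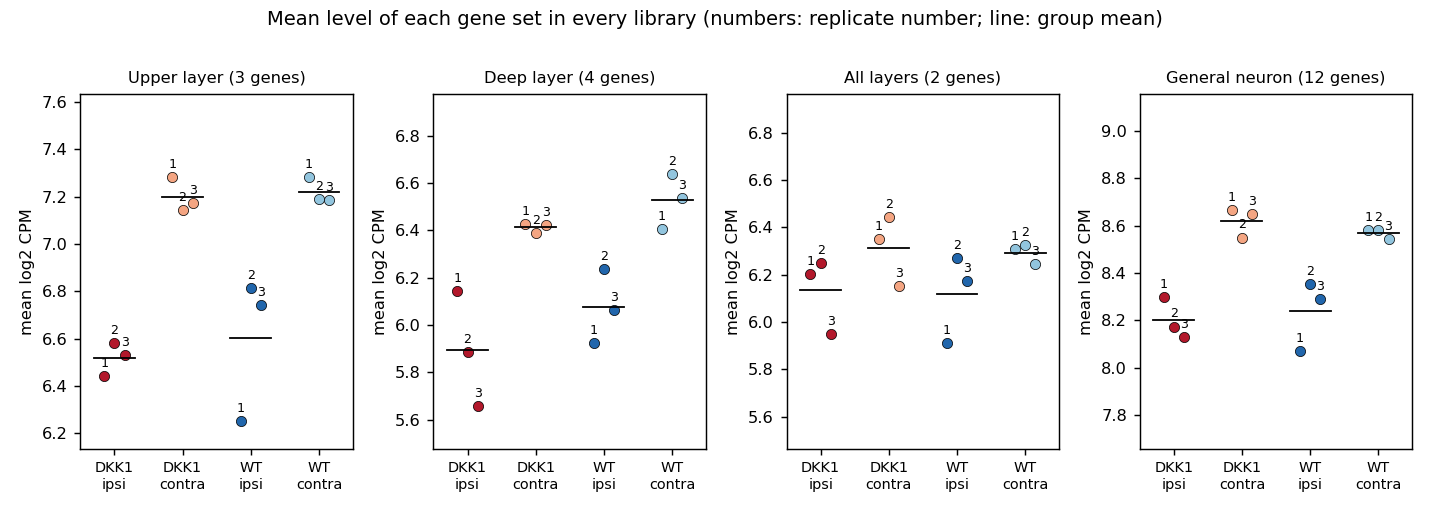
Mean log2 CPM of the upper-layer, deep-layer and all-layer genes in each library, by group. Numbers beside the points are replicate numbers, lines are group means, and a panel for the 12 general neuron genes is added. In both genotypes the upper-layer and deep-layer means are lower in every ipsilateral than in every contralateral library, and the all-layer means overlap.

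The members were also set against a list of 12 general neuron genes, which were themselves lower on the lesioned side. Of these, 12 were called lower in DKK1 mice, among them Rbfox3, which encodes the nuclear antigen NeuN (246 ± 15.6 CPM in DKK1 ipsilateral and 367 ± 17.8 CPM in DKK1 contralateral hemispheres, −0.58 ± 0.089, adjusted p = 0.000275), and 9 in wild-type mice. Their median log2 change was −0.40 in DKK1 and −0.31 in wild-type mice. In wild-type mice 4 were called lower without both wild-type libraries numbered 1 (median −0.21). As a difference in mean log2 CPM, the list stood −0.42 on the ipsilateral against the contralateral side in DKK1 and −0.33 in wild-type mice. Relative to that list, the ipsilateral minus contralateral difference in log2 CPM was −0.38 in DKK1 and −0.44 in wild-type mice for Rorb, −0.19 and −0.29 for Cux2, and −0.21 and −0.13 for Rasgrf2. Among the deep-layer genes it was −0.34 in DKK1 and −0.31 in wild-type mice for Bcl11b, −0.23 and −0.27 for Tbr1, and −0.13 and −0.10 for Foxp2. For Fezf2 and Neurod6 this difference was positive, at 0.31 and 0.41 in DKK1 and 0.21 and 0.20 in wild-type mice. For Neurod2 it was 0.067 in DKK1 and 0.11 in wild-type mice. On this relative scale the sides overlapped for Foxp2 in both genotypes. They also overlapped for Cux2 and Neurod2 in DKK1 mice and for Rasgrf2 and Neurod6 in wild-type mice. These relative differences were not tested. Without wild-type ipsilateral 1 the wild-type difference was −0.25 for Rorb, −0.057 for Rasgrf2, −0.15 for Foxp2, 0.048 for Neurod2 and 0.30 for Neurod6, and −0.27, −0.36, −0.20 and 0.20 for Cux2, Bcl11b, Tbr1 and Fezf2.

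Other layer markers were taken as lists of known markers. With all libraries, the upper-layer genes called were all lower, while the deep-layer genes called went both ways. Of 13 further upper-layer genes, 8 were called lower and 0 higher in DKK1 mice (median −0.30), and 6 lower and 0 higher in wild-type mice (median −0.30). In DKK1 mice 4 were called lower without DKK1 ipsilateral 3 and 5 without DKK1 contralateral 1. In wild-type mice 1 gene was called higher without wild-type contralateral 1, and 4 lower and 1 higher without both wild-type libraries numbered 1. Examples were the netrin receptor gene Unc5d, at 39.4 ± 2.26 CPM in DKK1 ipsilateral and 77.2 ± 11.2 CPM in DKK1 contralateral hemispheres (−0.97 ± 0.17, adjusted p = 0.000612), and Lamp5 at 106 ± 3.36 CPM and 151 ± 5.50 CPM (−0.50 ± 0.10, adjusted p = 0.00171). In wild-type mice Unc5d changed by −0.64 ± 0.16 (adjusted p = 0.0106) and Lamp5 by −0.58 ± 0.10 (adjusted p = 0.00129). Of 19 further deep-layer genes, 9 were called lower and 1 higher in DKK1 mice (median −0.31), and 7 lower and 2 higher in wild-type mice (median −0.13). In DKK1 mice 5 were called lower without DKK1 ipsilateral 2, 5 without DKK1 ipsilateral 3, and 2 were called higher without DKK1 ipsilateral 1. In wild-type mice the genes called were 2 lower and 1 higher without wild-type ipsilateral 1 (median −0.018), 2 and 1 without wild-type ipsilateral 3, and 3 and 0 without wild-type contralateral 2. Called lower were 4 without wild-type contralateral 1, wild-type contralateral 3 or DKK1 contralateral 3. The deep-layer genes that fell in DKK1 mice included Pcp4, which encodes a calmodulin-binding peptide (88.5 ± 8.62 CPM in DKK1 ipsilateral and 147 ± 16.6 CPM in DKK1 contralateral hemispheres, −0.73 ± 0.14, adjusted p = 0.000998), and Syt6, a synaptotagmin gene (−0.79 ± 0.16, adjusted p = 0.00185). Pcp4 is abundant in striatal neurons too. Sulf1, an extracellular sulfatase gene that non-neuronal cells can also express, was higher by 0.76 ± 0.21 (adjusted p = 0.0117) in DKK1 and by 0.80 ± 0.21 (adjusted p = 0.0134) in wild-type mice, and Tshz2 was higher in wild-type mice by 0.46 ± 0.13 (adjusted p = 0.0190).

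Of 13 other excitatory-neuron genes, 13 were called lower in DKK1 mice (median −0.51) and 11 in wild-type mice (median −0.44, 9 without wild-type ipsilateral 1). That wild-type count was 4 without both wild-type libraries numbered 1 (median −0.31). The genes called lower in DKK1 mice are described next. They included Arpp21 (257.1 ± 35.2 CPM in DKK1 ipsilateral and 438 ± 45.0 CPM in DKK1 contralateral hemispheres, −0.77 ± 0.16, adjusted p = 0.00189) and Nrgn, the postsynaptic calmodulin-binding neurogranin gene (449 ± 16.8 CPM and 618 ± 41.1 CPM, −0.46 ± 0.095, adjusted p = 0.00177). Inhibitory-neuron genes moved the same way. Of 14, 9 were called lower in DKK1 mice (median −0.43) and 8 in wild-type mice (median −0.28, 3 called without wild-type ipsilateral 1, 4 if library 3 of that group was left out, 2 without wild-type contralateral 2 and 4 without wild-type contralateral 3). Gad1, which encodes a GABA-synthesising enzyme, stood at 224 ± 16.8 CPM in DKK1 ipsilateral and 309 ± 24.2 CPM in DKK1 contralateral hemispheres (−0.46 ± 0.073, adjusted p = 0.000308). Medium spiny neuron genes of the striatum had the lowest medians of the 12 lists, −1.04 in DKK1 and −1.08 in wild-type mice, with 13 of 13 called lower in each. Drd2, the gene of a dopamine receptor, had 42.4 ± 9.06 CPM in DKK1 ipsilateral and 102 ± 15.7 CPM in DKK1 contralateral hemispheres (−1.27 ± 0.19, adjusted p = 0.000261).

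Markers of other cells and regions were set beside the members. Over all genes, 22.6% were called lower and 27.5% higher on the lesioned side in DKK1 mice, and 15.9% and 21.2% in wild-type mice. All 10 microglia and macrophage genes were higher in DKK1 mice and 9 in wild-type mice, with summed levels of 1379.6 to 1544 CPM in DKK1 ipsilateral against 285 to 350.0 CPM in DKK1 contralateral, and 879 to 1428 CPM in wild-type ipsilateral against 298 to 446 CPM in wild-type contralateral hemispheres. Of 8 astrocyte genes 6 were higher and 1, the glutamate transporter gene Slc1a2, lower in DKK1 mice, and 5 were higher in wild-type mice. The call of Slc1a2 was lost on leaving out DKK1 ipsilateral 2 or 3, DKK1 contralateral 1 or 3, wild-type ipsilateral 3 or wild-type contralateral 3. The list's summed level was 3138 to 3552 CPM in DKK1 ipsilateral and 2644 to 3023 CPM in DKK1 contralateral hemispheres. Of 7 oligodendrocyte genes 6 were higher in each genotype, or 2 in wild-type mice without wild-type ipsilateral 1 or wild-type contralateral 2, and in DKK1 mice 3 without DKK1 ipsilateral 1 and 2 without DKK1 contralateral 2. Their summed level was 3650.1 to 3939 CPM in DKK1 ipsilateral and 2813 to 3178 CPM in DKK1 contralateral hemispheres. CPM are shares of a library, and the part of these glial rises in the members' changes was not tested. Hippocampal genes had 0 of 9 called in DKK1 mice by edgeR (1 had p under 0.05 before adjustment, 1 by DESeq2 and 0 by limma-voom, and 1 lower without wild-type ipsilateral 1 or DKK1 contralateral 1) and 5 higher in wild-type mice (Prox1, Iyd, Lct, C1ql2 and Dsp), 3 without wild-type ipsilateral 1. Of 12 thalamic genes 3 were lower (Slc17a6, Ntng1 and Rora) and 2 higher (Amotl1 and Prkcd) in DKK1 mice. In wild-type mice 1 was lower (Rora) and 7 higher, Ntng1 among them. Ntng1 thus went opposite ways, at −0.65 ± 0.14 (adjusted p = 0.00222) in DKK1 and 0.40 ± 0.14 (adjusted p = 0.0361) in wild-type mice. The difference between these changes was not called by edgeR with all libraries. In wild-type mice 4 thalamic genes were called higher without wild-type ipsilateral 3 or wild-type contralateral 2. Rora was not called there on leaving out wild-type ipsilateral 1, wild-type contralateral 1 or 3 or any DKK1 contralateral library. In DKK1 mice 1 was called higher without DKK1 ipsilateral 2 or 3 or DKK1 contralateral 1, and 4 without wild-type contralateral 3. Of 5 olfactory bulb genes, Eomes and Tbx21, which T and NK cells also express, were higher in both genotypes, and Sp8 was higher in wild-type mice. None of the markers in these lists was at 0 counts in any library. Eomes stood at 1.47 ± 0.207 CPM in DKK1 ipsilateral and 0.163 ± 0.0494 CPM in DKK1 contralateral hemispheres. Tbx21 stood at 1.61 ± 0.444 CPM and 0.210 ± 0.0817 CPM, so both rises start near the limit of detection.

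**Figure D4:**
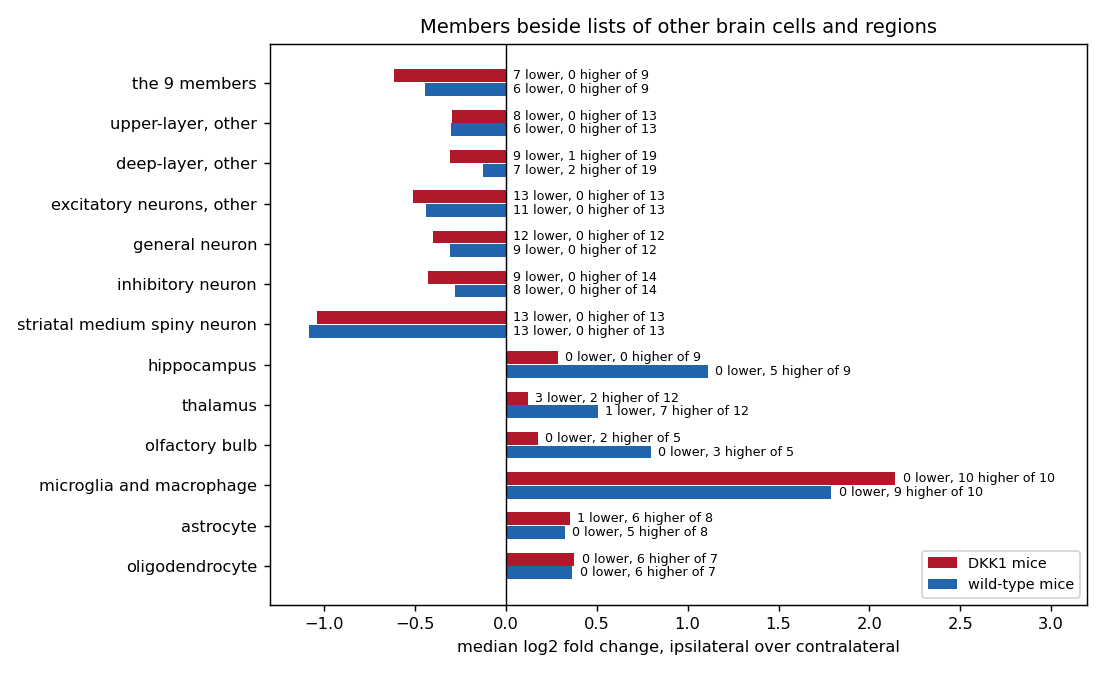
Bars are the median log2 fold change (ipsilateral over contralateral) of the 9 members and of the 12 marker lists in each genotype, with the number of genes called lower and higher written beside each bar. Medium spiny neuron genes have the lowest medians and microglia and macrophage genes the highest.

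DKK1 against wild type was compared within each hemisphere, a comparison in which induction of Dkk1 and carriage of the other transgenes cannot be told apart. On the lesioned side 0 of 9 members were called by edgeR, DESeq2 or limma-voom, and 0 had an unadjusted edgeR p under 0.05, where 2.37% of all genes were called (149 lower and 268 higher, or 186 and 186 with upper-quartile scaling). With the replicate number as a random effect in limma-voom 681 genes and 0 members were called, against 694 genes by limma-voom without it. The changes, DKK1 over wild type, ran from −0.29 ± 0.13 (Foxp2, 95% interval −0.58 to 0.010) to 0.15 ± 0.14 (Neurod6, 95% interval −0.16 to 0.46). Cux2 differed by −0.0028 ± 0.11 (95% interval −0.23 to 0.23), Rorb by −0.18 ± 0.17 (−0.55 to 0.19) and Rasgrf2 by −0.14 ± 0.11 (−0.37 to 0.10). Among the deep-layer genes, Tbr1 differed by −0.22 ± 0.12 (−0.47 to 0.035), Bcl11b by −0.15 ± 0.13 (−0.42 to 0.13) and Fezf2 by −0.041 ± 0.15 (−0.36 to 0.28). Neurod2 differed by −0.13 ± 0.091 (−0.33 to 0.073). These intervals span 0. The count of members depended on wild-type ipsilateral 1, which had the lowest Rorb, Rasgrf2 and Cux2 values among the libraries of its side. Without it, 3 members were called lower in DKK1 ipsilateral hemispheres: Rorb at −0.40 ± 0.074 (adjusted p = 0.00671), Rasgrf2 at −0.28 ± 0.067 (adjusted p = 0.0203) and Tbr1 at −0.36 ± 0.083 (adjusted p = 0.0172). Rorb and Rasgrf2 are upper-layer genes and Tbr1 is a deep-layer gene. The same fit called 747 of all genes lower (4.24%) and 1822 higher, against 149 lower (0.846%) and 268 higher with all libraries. The same 3 members were called lower without both wild-type libraries numbered 1. The marker sums of microglia and macrophages given above moved with this library too, at 1379.6, 1420.2 and 1544 CPM in DKK1 ipsilateral 1, 2 and 3 against 1428, 879 and 1030.1 CPM in wild-type ipsilateral 1, 2 and 3, and their part in these calls was not tested.

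On the intact side 0 of 9 members were called by edgeR, DESeq2 or limma-voom, and 0 had an unadjusted edgeR p under 0.05, where 0.88% of all genes were called. Changes ran from −0.18 ± 0.13 (Foxp2, 95% interval −0.47 to 0.11) to 0.045 ± 0.14 (Neurod6, 95% interval −0.27 to 0.36). For Rorb and Tbr1 every DKK1 contralateral library lay below every wild-type contralateral one, as for 6.07% of all genes, but their changes of −0.10 ± 0.17 (95% interval −0.46 to 0.26) and −0.16 ± 0.11 (−0.41 to 0.093) did not pass. The interaction asks whether the lesion's change differed between DKK1 and wild-type mice. It was called for 0 of 9 members by edgeR, DESeq2 and limma-voom (0 at an unadjusted edgeR p under 0.05), and for 0.00568% of all genes, a single gene (H2-T-ps). With the replicate number as an additive block in edgeR 288 genes and 0 members were called. The interaction was 0.0016 ± 0.15 for Cux2 (95% interval −0.32 to 0.33), −0.076 ± 0.24 for Rorb (−0.60 to 0.44), −0.18 ± 0.15 for Rasgrf2 (−0.52 to 0.15) and −0.060 ± 0.16 for Tbr1 (−0.42 to 0.30). For the other members it lay between −0.13 and 0.10. At this number of libraries, a difference between the genotypes in the lesion's change was not detected for any of the 9 genes. This does not show that the changes were equal. Of the 135 genes in the 12 marker lists, 0 were called by edgeR in the genotype comparison of the lesioned side (20 before adjustment, 6 by DESeq2 and 1 by limma-voom), and 13 without wild-type ipsilateral 1. Of all 17612 genes, the same comparison called 417 by edgeR, 1145 by DESeq2 and 694 by limma-voom, and 2569 by edgeR without wild-type ipsilateral 1.

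The genes whose pattern was most like the class means were found by the root mean square difference of centred log2 CPM over the 12 libraries, among genes with a mean of at least 5 CPM. For the upper-layer mean these were Kcnk4, a potassium channel gene (0.0832), Necab3 (0.0852), Rbfox1, a neuronal splicing factor gene (0.0877), Camk2n1, which encodes an inhibitor of CaM kinase II (0.0882), and the cadherin gene Cdh22 (0.0901). The members themselves were 0.0712 (Rasgrf2), 0.0963 (Cux2) and 0.116 (Rorb) from their mean, which includes them and so lowers these distances. For the deep-layer mean they were 1700030J22Rik (0.0499), Fam43b (0.0524), the G-protein subunit gene Gnb5 (0.0549), the ubiquitin ligase gene Nedd4l (0.0669) and E330009J07Rik (0.0680). Of the deep-layer members, also part of their mean, Foxp2 (0.0795) was the nearest and Fezf2 (0.210) the farthest. The genes outside the members were picked for that likeness, so their own lesion changes, −0.61 to −0.79 in DKK1 mice for the first 5 and −0.51 to −0.62 for the others, are descriptions only.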

How the data were processed

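RNA was extracted from mouse brain hemispheres by Qiazol and miRNeasy micro columns, DNase included, and mRNA libraries were made with a NEBNext Ultra II directional kit, per the labels' protocols. STAR 2.7.0f, HOMER 4.11, DESeq2 and the build mm10 are named in the submitters' processing notes; the sources used here give neither their roles nor how strand entered the counting. Per the file headers, the authors deposited raw counts per gene, on 1 RefSeq transcript each, and a TPM table of the same libraries. For the 9 members the deposited TPM rest on the same transcript in 6 cases and on another in 3 (Rorb, Bcl11b and Foxp2). In GENCODE vM21 no exon of a member overlaps an exon of another gene. Coordinates are 1-based in mm10.

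Counts were filtered in edgeR 4.0.16 (R 4.3.3; minimum count 10, by group), which left 17612 genes, and scaled by TMM (factors 0.963 to 1.04). A single robust quasi-likelihood model held all 12 libraries in their 4 groups. Tests were two-sided, with Benjamini-Hochberg adjustment over all genes and a threshold of 0.05. An adjusted p with no tool beside it comes from edgeR. Log2 CPM used a prior count of 2. Depth was 21209920 to 26911840 counts per library. The procedure was run on simulated counts in which few genes were changed, in the DKK1 ipsilateral libraries only. That simulation held no pairing and no outlying library, so it does not cover these features of the data. Whether equal numbers mark an animal is not in the labels. Deviations of same-numbered ipsilateral and contralateral libraries from their group means correlated at 0.105 to 0.487. Differently numbered libraries reached 0.172 (DKK1 ipsilateral 3 with contralateral 2) and 0.152 (wild-type ipsilateral 3 with contralateral 2). Same-numbered DKK1 pairs 2 (0.125) and 3 (0.105) lay below these values. The correlations thus do not settle whether equal numbers pair libraries, and pairing was used only as an alternative to the main model. The number entered as an additive block within genotype in edgeR for the lesion comparisons and the interaction, and as a random effect in limma-voom for the genotype comparisons, where a fixed block cannot be had. Other alternatives were other scalings, no filter, DESeq2 1.42.0, limma 3.58.1 with voom or on the deposited log2(TPM + 1) and log2(TPM + 0.1), only the groups compared, and each library left out. Leaving out both wild-type libraries numbered 1, and wild-type ipsilateral 1 in the comparison with the neuron list, were added after the data were seen. Members and marker lists were chosen with earlier results of these data known. All members are named, and of each list up to 3 genes with the smallest p in the DKK1 lesion comparison could be; other list genes named (Sulf1, Tshz2, Slc1a2 and regional markers) were singled out after their values were seen. Promoter windows, RefSeq on GRCm38.p6, cover the 250 bases before the start.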

Additional observations from a re-analysis of the deposited data

How the results depend on the processing

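Of the members' values under the alternatives, 903 kept direction and side of the threshold, 7 were no longer past it, 11 passed it only there and 60 changed sign, the last all among values with no call. The falls of Cux2, Rorb, Rasgrf2, Bcl11b and Tbr1 on the lesioned side held in both genotypes under every alternative run. The cause of the shifts below was not tested. The genes called between genotypes ipsilaterally numbered 417 in all libraries, 1145 with DESeq2, 694 with limma-voom, 97 with only those groups, 681 with limma-voom and the replicate block and 119 to 2569 on leaving out 1 library, with 0 to 3 members (3 without both wild-type libraries numbered 1). Contralaterally the number was 155, 267 with DESeq2 and 94 to 159 on leaving out 1 library. For the interaction it was 1, 65 with DESeq2, 0 with limma-voom, 9 and 4 on log2(TPM + 1) and log2(TPM + 0.1), 288 with the replicate block in edgeR and 0 to 399 on leaving out 1 library. The replicate block, that is the assumed pairing, changed no member's call other than Neurod2 in wild-type mice, which also passed with only those 2 groups in the fit (adjusted p = 0.0229).

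Sign changes were as follows. On the TPM scales Neurod6 was 0.0070 and 0.0072 for the lesion in DKK1 mice, Neurod2 −0.0089 and −0.0092 between genotypes contralaterally, and the interaction −0.024 and −0.025 for Cux2 and −0.021 and −0.023 for Fezf2. Without both libraries numbered 1, Neurod6 was 0.070 for the lesion in wild-type mice and −0.018 between genotypes ipsilaterally, Cux2 was 0.072 contralaterally, and the interaction was −0.17 for Cux2 and −0.079 for Neurod6. Cux2 between genotypes ipsilaterally was 0.0022 with limma-voom and 0.0023 with the block, and contralaterally 0.00050 with upper-quartile scaling. The interaction of Cux2 was −0.0065 with relative log expression and −0.033 with upper-quartile scaling, −0.028 with no filter and −0.0067 with DESeq2, and that of Fezf2 −0.00080 with upper-quartile scaling. Leaving out 1 library at a time gave ranges across 0 of Fezf2 −0.31 to 0.0087, Neurod6 −0.13 to 0.076 for the lesion in DKK1 mice; Neurod6 −0.23 to 0.055 for the lesion in wild-type mice; Cux2 −0.10 to 0.078, Fezf2 −0.26 to 0.058, Neurod6 −0.018 to 0.26 for DKK1 over wild type ipsilaterally; Bcl11b −0.11 to 0.044, Cux2 −0.091 to 0.074, Neurod2 −0.056 to 0.080, Neurod6 −0.015 to 0.14 for DKK1 over wild type contralaterally; Bcl11b −0.22 to 0.049, Cux2 −0.10 to 0.082, Fezf2 −0.18 to 0.13, Foxp2 −0.24 to 0.028, Neurod6 −0.064 to 0.22, Rorb −0.30 to 0.084, Tbr1 −0.20 to 0.070 for the interaction. On the TPM scales the wild-type call of Foxp2 was lost at −0.34 and −0.37 (adjusted p = 0.0556 in both), and without both libraries numbered 1 at −0.46 (adjusted p = 0.0624). With 3 libraries a group, small differences between genotypes could not be resolved.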
